A study of Mus musculus with 8 samples.

Results

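Troponin is the calcium switch of the thin filament, and its 8 genes were followed here in 8 RNA sequencing libraries of C2C12 cells, an established mouse myoblast line that can fuse into myotubes when serum is lowered. The genes were chosen by name: Tnnt1, Tnnt2 and Tnnt3 for troponin T, Tnni1, Tnni2 and Tnni3 for troponin I, and Tnnc1 and Tnnc2 for troponin C. They are 8 of the 21879 genes in the deposited table, and 7 of them reached the mean of 1 FPKM (fragments per kilobase of gene, scaled to library size) needed to enter the test. The cells of 4 libraries were transfected with a control siRNA (siNC) and those of 4 with an siRNA against Fam129b, titled siFAM129B and written siFam129b here. Both groups are the same cell line, carry the same label of muscle differentiation, and share a protocol of 10% fetal bovine serum for growth and 2% horse serum for differentiation. Neither the siRNA sequences nor the time in differentiation medium is stated in the labels. The comparison asks which transcripts differ when Fam129b, a gene studied here for its part in muscle atrophy, is depleted.

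In striated muscle, troponin C binds calcium, troponin I holds the filament in the inhibited state, and troponin T anchors both to tropomyosin. Each subunit comes in forms named for slow skeletal, fast skeletal or cardiac muscle, and troponin C has a single form for slow skeletal and cardiac muscle. Embryonic skeletal muscle is known to express the cardiac troponin T gene, which is later replaced by the skeletal forms. In the mouse genome 6 of the genes lie in pairs of 1 troponin I and 1 troponin T gene, by the RefSeq annotation of GRCm38.p6. Tnni1 and Tnnt2 lie on chromosome 1 with 1 protein-coding gene, Lad1, between them, Tnni2 and Tnnt3 on chromosome 7 with Lsp1 between them, and Tnnt1 and Tnni3 elsewhere on chromosome 7 with 0 protein-coding genes between them. Tnnc1 lies on chromosome 14 and Tnnc2 on chromosome 2.

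The promoter windows of 4 members are shown because these genes carry the contrasts described below: Tnnt2 and Tnnc1 were the most abundant members, while Tnni1 and Tnnc2 stood furthest apart between replicates of the control. The windows are RefSeq sequences of GRCm38.p6, from 250 bases before to 50 after the annotated start, each read 5′ to 3′ on the gene's strand. They are chr1:135836084-135836383 (plus strand), chr14:31208062-31208361 (plus strand), chr1:135799171-135799470 (plus strand) and chr2:164779685-164779984 (minus strand). For Tnnt2 and Tnni1, which have 2 annotated starts each, the upstream window is shown. Capitals mark E-boxes (CANNTG, the letters bound by MyoD family factors) and MCAT elements (CATTCC, the letters bound by TEAD factors), searched on both strands.
Tnnt2: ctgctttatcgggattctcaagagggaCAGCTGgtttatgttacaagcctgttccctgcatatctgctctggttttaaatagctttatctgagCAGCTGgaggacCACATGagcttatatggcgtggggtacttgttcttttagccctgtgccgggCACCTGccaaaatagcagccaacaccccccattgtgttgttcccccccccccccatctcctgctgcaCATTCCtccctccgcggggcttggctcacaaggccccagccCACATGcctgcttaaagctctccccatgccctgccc
Tnnc1: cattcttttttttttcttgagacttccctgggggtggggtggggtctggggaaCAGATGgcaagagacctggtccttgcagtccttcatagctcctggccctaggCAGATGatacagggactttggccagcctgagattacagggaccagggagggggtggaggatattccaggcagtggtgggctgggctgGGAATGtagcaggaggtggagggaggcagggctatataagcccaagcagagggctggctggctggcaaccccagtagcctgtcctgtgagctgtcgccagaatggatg
Tnni1: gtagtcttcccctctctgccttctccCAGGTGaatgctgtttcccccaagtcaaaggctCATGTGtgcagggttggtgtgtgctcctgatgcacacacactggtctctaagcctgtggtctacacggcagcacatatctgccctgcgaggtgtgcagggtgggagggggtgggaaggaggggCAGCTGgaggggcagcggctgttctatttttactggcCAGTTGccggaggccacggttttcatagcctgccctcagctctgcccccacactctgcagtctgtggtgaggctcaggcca
Tnnc2: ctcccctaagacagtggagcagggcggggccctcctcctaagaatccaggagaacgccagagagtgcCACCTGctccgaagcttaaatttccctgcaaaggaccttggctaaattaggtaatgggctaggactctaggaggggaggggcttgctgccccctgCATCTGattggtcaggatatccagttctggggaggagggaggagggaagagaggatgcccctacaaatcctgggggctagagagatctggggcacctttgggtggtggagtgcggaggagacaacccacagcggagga
The Tnnt2 window held 5 E-boxes and 1 MCAT element, the Tnnc1 window 2 and 1, the Tnni1 window 4 and 0, and the Tnnc2 window 2 and 0, and in none of the 4 did an E-box overlap an MCAT element. Of 32851 windows of the same length, 72.3% held an E-box and 14.7% an MCAT element. Windows were found for 6 of the 8 members, none of them Tnnt3 or Tnni2. Of their 8 windows, all 8 held an E-box and 2, both shown, an MCAT element. The second windows of Tnnt2 and Tnni1 held 2 E-boxes and 0 MCAT elements each. The 2 Tnni1 windows overlap, and both E-boxes of the second are also in the first. A match is a description of the letters, not of a bound site.

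The libraries were close in depth, with between 31466869 and 36031688 whole reads recovered from the ratios of the deposited values, and siFam129b library 4 stood apart, with FPKM values summing to 470385 against 391336 to 398292 in the others. The targeted transcript, Fam129b, had its 4 siFam129b values below its 4 siNC values, at 98.5 ± 19.9 against 168 ± 11.6 FPKM (SD, n = 4), so 58.8% remained (exact two-sided permutation p = 0.0286, the smallest that 4 against 4 can give). In limma over all genes its adjusted p was 0.784 with the 8 libraries and 0.00176 when siFam129b library 4 was left out. Myoblast markers were present, with all 8 of the list at or above a mean of 1 FPKM. Des, the muscle intermediate filament, lay between 172 and 290 FPKM and Cdh15, M-cadherin, between 68.5 and 98.2 FPKM. Others were low, with Myf5 between 4.50 and 16.7 FPKM and Pax7 between 1.03 and 1.46 FPKM. Separate cultures are not mentioned in the labels, and the p-values therefore reflect the spread of these libraries alone, which may be technical. In bulk RNA, fewer cells that express a gene and less RNA per cell cannot be told apart.

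No troponin gene passed the test between siFam129b and siNC. The test was limma on log2(FPKM + 1) with Benjamini-Hochberg adjustment over 11025 genes, of which 0% were called at an adjusted p of 0.05, and 274 genes, 2.49%, lay at an unadjusted p under 0.05, among them 0 of the 7 troponin genes tested. In voom, run on recovered reads, 0 genes were called and 251 had an unadjusted p under 0.05. The groups overlapped for all 8 troponin genes, against 3.37% of tested genes whose groups did not overlap. Of the 7 tested, 6 had a difference below 0, against 49.4% of all tested genes, and their median was -0.29 against 0.0032 for all genes. The exception was Tnnt2.

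Troponin T RNA in these cells came mostly from Tnnt2, the gene of the cardiac form. Tnnt2 stood at 36.6, 33.3, 31.5 and 33.8 FPKM in siNC libraries 1 to 4 and at 37.2, 40.4, 34.9 and 60.9 FPKM in siFam129b libraries 1 to 4. The 4 siFam129b libraries all lay above the siNC mean of 33.8 FPKM, and library 3 of siFam129b lay below library 1 of siNC. The mean was 1.28 times the siNC mean, with a log2 difference of 0.32 ± 0.16 (SE, 95% interval -0.04 to 0.68, limma adjusted p = 0.784). siFam129b library 4 set much of that size: without it the log2 difference was 0.15 (95% interval -0.01 to 0.30, limma adjusted p = 0.87). The sum of FPKM in that library was also the highest, and with every library scaled to an equal sum the difference was 0.25 (limma adjusted p = 0.776). In siNC, 2556 genes of the table had a higher mean than Tnnt2, against 7749 for Tnnc1 and 9983 or more for the other members.

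The skeletal forms of troponin T were far lower. Tnnt1, the slow skeletal form, stood at 2.92, 2.30, 2.11 and 1.30 FPKM in siNC and at 1.64, 2.36, 0.889 and 1.44 FPKM in siFam129b. Libraries of the groups were interleaved, and the log2 difference was -0.29 ± 0.20 (SE, 95% interval -0.75 to 0.17, limma adjusted p = 0.784). Tnnt3, the fast skeletal form, stood at 3.56, 2.60, 1.08 and 1.15 FPKM in siNC and at 2.04, 1.06, 0.911 and 0.490 FPKM in siFam129b. All 4 siFam129b values lay below the siNC mean, while siFam129b library 1 lay above siNC libraries 3 and 4. The Tnnt3 mean was 53.6% of the siNC mean, with a log2 difference of -0.51 ± 0.29 (SE, 95% interval -1.17 to 0.15, limma adjusted p = 0.784). Prr33 overlaps Tnnt3 in the RefSeq annotation, and no source used here says whether counting used strand, so reads of the overlap cannot be assigned.

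Troponin I was the least abundant subunit at the level of RNA. Tnni1, the slow skeletal form, stood at 4.13, 4.11, 1.42 and 0.714 FPKM in siNC and at 2.01, 1.63, 0.439 and 1.22 FPKM in siFam129b. Libraries 1 and 2 of siNC were the highest of all 8, and library 4 of siNC lay below 3 siFam129b libraries. The mean was 51.0% of the siNC mean (log2 difference -0.53 ± 0.38, SE, 95% interval -1.37 to 0.32, limma adjusted p = 0.784). Tnni2, the fast skeletal form, stood at 2.61, 2.22, 0.750 and 0.926 FPKM in siNC and at 1.52, 1.18, 0.612 and 0.247 FPKM in siFam129b. Here too the order within each group was libraries 1 and 2 above 3 and 4, and the groups overlapped. The Tnni2 mean was 54.8% of the siNC mean (log2 difference -0.46 ± 0.29, SE, 95% interval -1.10 to 0.19, limma adjusted p = 0.784).

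Tnni3, the cardiac form of troponin I, was the other member with higher values in siFam129b. It stood at 0.357, 0.446, 0.645 and 0.381 FPKM in siNC and at 0.846, 0.647, 0.711 and 0.595 FPKM in siFam129b. A single siNC library, library 3, lay within the siFam129b range, and the mean was 1.53 times the siNC mean. Tnni3 did not reach the mean of 1 FPKM, so its test comes from the limma fit with no filter on low values, where it had a log2 difference of 0.22 ± 0.07 (SE), an unadjusted p of 0.0143 and an adjusted p of 0.83 over 16479 genes. In that fit 0% of genes were called and 3.34% lay at an unadjusted p under 0.05. The depth behind these values was small, at 12 to 26 reads per library, or 61 reads in all of siNC and 90 in all of siFam129b. The 12 reads of siNC library 1 have an exact 95% Poisson interval of 6.20 to 21.0 reads and the 26 of siFam129b library 1 one of 17.0 to 38.1 reads, which cover counting error only.

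**Figure D1:**
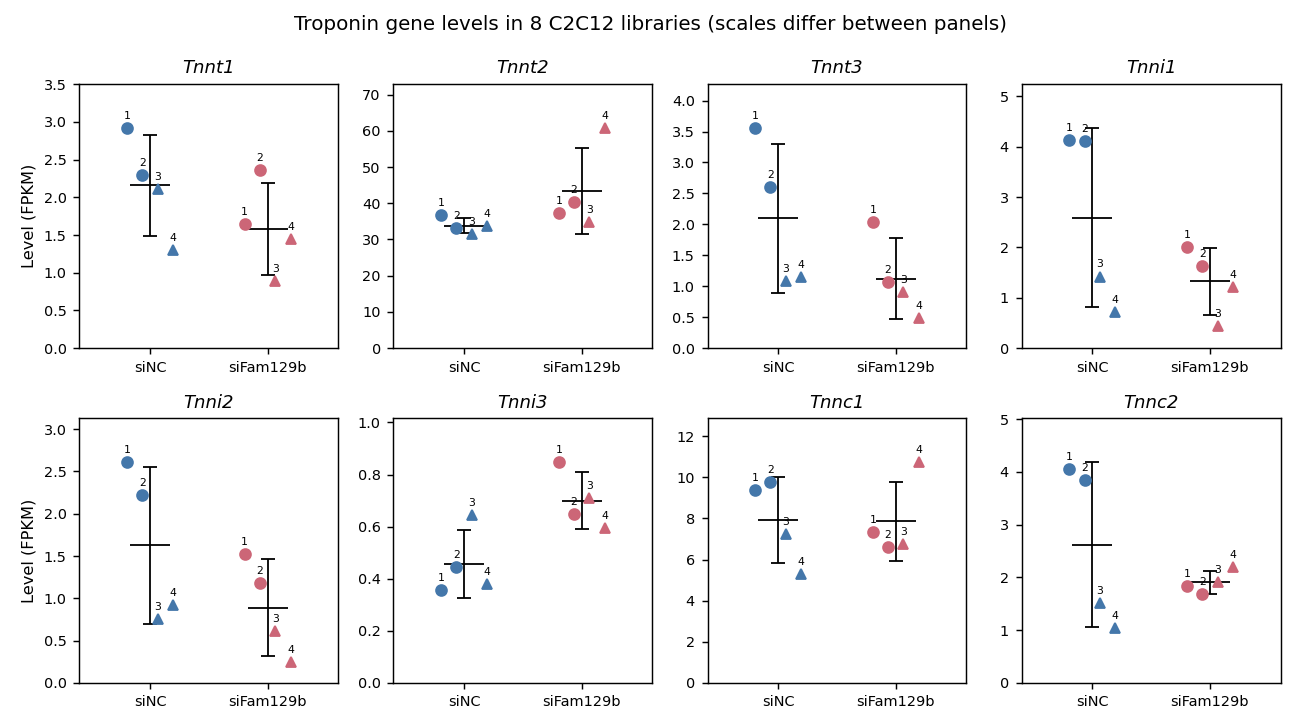
FPKM of the 8 troponin genes in each library, with numbers for the replicate, circles for replicates 1 and 2, triangles for 3 and 4, and bars for the mean ± SD of 4 libraries. Tnnt2 lies between 31.5 and 60.9 FPKM while Tnni3 is at most 0.846 FPKM, and for Tnni1, Tnni2 and Tnnt3 both circles lie above both triangles in each group.

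Troponin C RNA came mostly from Tnnc1, the gene of the slow skeletal and cardiac form. Tnnc1 stood at 9.37, 9.78, 7.25 and 5.29 FPKM in siNC and at 7.36, 6.59, 6.74 and 10.7 FPKM in siFam129b. The highest value was that of siFam129b library 4 and the lowest that of siNC library 4, with the others between. The means were 7.92 ± 2.08 and 7.86 ± 1.94 FPKM (SD, n = 4), and the 95% interval of the log2 difference ran from -0.45 to 0.45 (limma adjusted p = 0.996). Tnnc2, the fast skeletal form, stood at 4.06, 3.85, 1.51 and 1.03 FPKM in siNC and at 1.83, 1.68, 1.92 and 2.20 FPKM in siFam129b. The siFam129b values were close together and lay in the gap between the siNC pairs. The Tnnc2 mean was 73.0% of the siNC mean, with a log2 difference of -0.20 ± 0.28 (SE, 95% interval -0.84 to 0.43, limma adjusted p = 0.81).

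By order of level, Tnnt2 came first and Tnnc1 second in both groups, each above the next gene in every library with no overlap of their ranges. Below them, Tnnc2, Tnni1, Tnnt1 and Tnnt3 followed in siNC at means from 2.61 down to 2.10 FPKM, and the ranges of neighbours overlapped. In siFam129b the order was Tnnc2, Tnnt1, Tnni1 and Tnnt3, from 1.91 down to 1.12 FPKM, again with overlap. Tnni2 came next in both groups. Tnni3 was last, clear of Tnni2 in all 4 siNC libraries (0.458 ± 0.131 against 1.63 ± 0.926 FPKM, SD, n = 4) but above it in 2 of 4 siFam129b libraries, where the means were 0.700 ± 0.109 and 0.890 ± 0.569 FPKM (SD, n = 4).

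Shares within a subunit do not depend on how a library was scaled, and they are given as a description with no test. Tnnt2 made up 85.0%, 87.2%, 90.8% and 93.3% of summed troponin T FPKM in siNC libraries 1 to 4, and 91.0%, 92.2%, 95.1% and 96.9% in siFam129b libraries 1 to 4. The ranges of the groups overlapped. The Tnnt3 share was 5.34 ± 2.61% in siNC and 2.67 ± 1.73% in siFam129b (SD, n = 4), and the Tnnt1 share 5.62 ± 1.40% and 3.53 ± 1.46%. Within troponin I, Tnni3 made up 5.03%, 6.59%, 22.9% and 18.9% in siNC and 19.4%, 18.7%, 40.4% and 28.8% in siFam129b. The shares of siNC libraries 3 and 4 lay within the siFam129b range. Tnni1 made up 51.2 ± 11.4% and 44.3 ± 14.2% of troponin I, and Tnni2 35.5 ± 8.04% and 28.9 ± 11.3%, in siNC and siFam129b (SD, n = 4). Within troponin C, Tnnc1 made up 69.8%, 71.7%, 82.7% and 83.7% in siNC and 80.1%, 79.7%, 77.8% and 83.0% in siFam129b, so that siNC libraries 1 and 2 stood apart from the other 6.

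**Figure D2:**
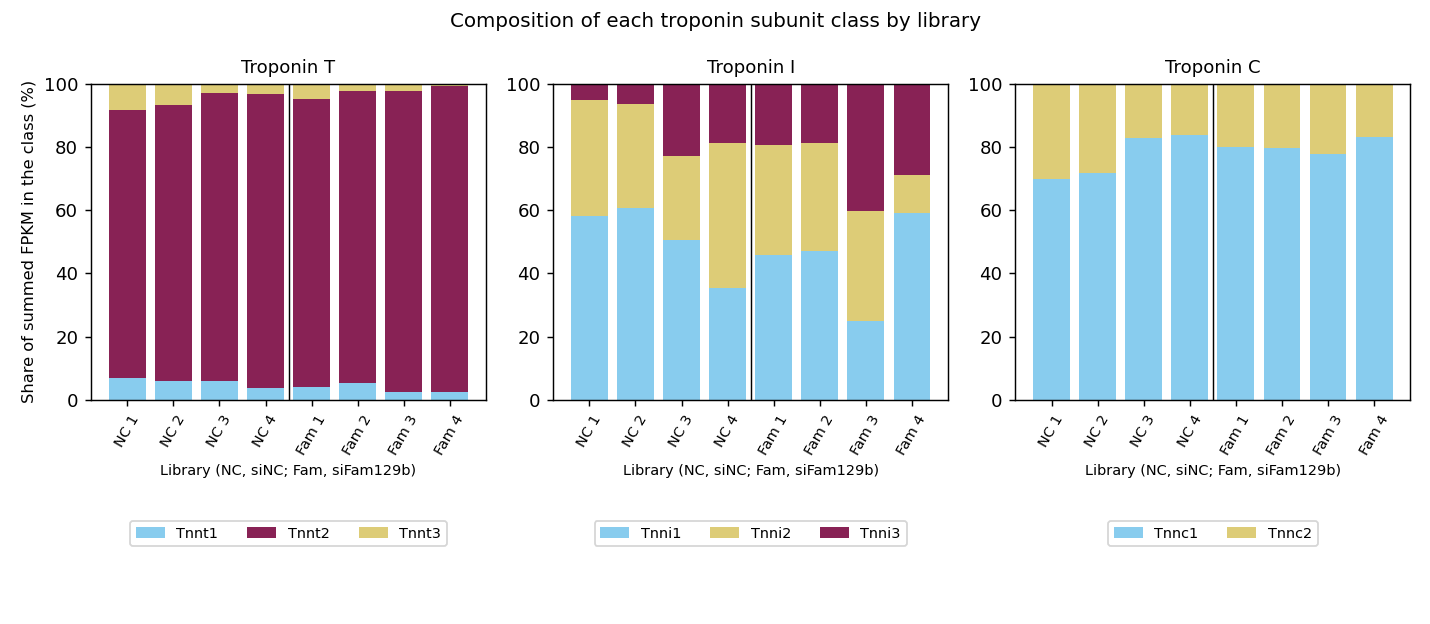
Stacked bars of the share (%) of each gene in the summed FPKM of its troponin subunit, for each siNC library (NC) and siFam129b library (Fam). Tnnt2 fills 85.0% or more of troponin T in every library, Tnnc1 69.8% or more of troponin C, and the Tnni3 share of troponin I runs from 5.03% to 40.4%.

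The 3 subunits, which work in equal number in the assembled complex, were far from equal at the level of RNA. Summed troponin T stood at 38.1 ± 3.66 FPKM in siNC and 46.1 ± 11.5 FPKM in siFam129b, troponin C at 10.5 ± 3.60 and 9.77 ± 2.14 FPKM, and troponin I at 4.68 ± 2.63 and 2.91 ± 1.22 FPKM (SD, n = 4). The ratio of troponin T to troponin I was 6.08, 5.64, 12.3 and 17.9 in siNC libraries 1 to 4 and 9.35, 12.7, 20.9 and 30.4 in siFam129b libraries 1 to 4. The groups overlapped. Most of the troponin T in that ratio is Tnnt2.

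Replicates 1 and 2 differed from 3 and 4 within each group, and the skeletal troponin T and I genes followed that division in both groups. Tnnc1 and Tnnc2 followed it in siNC only. In siNC, 6 of the 8 members had both of libraries 1 and 2 above both of 3 and 4, against 31.7% of tested genes. Tnnt2 and Tnni3 were the exceptions. In siFam129b this held for Tnnt1, Tnnt3, Tnni1 and Tnni2, which are 4 of 8, against 19.5% of tested genes. Parts of this order lie within counting error. Tnnt1 had 89 reads in siNC library 2 and 79 in library 3, and Tnnt3 had 42 in siFam129b library 2 and 41 in library 3. Tnni1 averaged 4.12 FPKM in siNC libraries 1 and 2 and 1.07 FPKM in 3 and 4, a ratio of 3.86, and Tnnc2 3.96 and 1.27 FPKM, a ratio of 3.11. In siFam129b, Tnni1 averaged 1.82 FPKM in libraries 1 and 2, a ratio of 2.19 over 3 and 4. Troponin C ran the other way there, with Tnnc2 at 1.76 and 2.06 FPKM and Tnnc1 at 6.98 and 8.73 FPKM. The labels name no batch that matches the replicate numbers, so what the division stands for cannot be said from them.

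Within replicates 1 and 2 alone, Tnni1 and Tnnc2 were lower in siFam129b. The log2 difference was -0.86 for Tnni1 (limma adjusted p = 0.0357) and -0.85 for Tnnc2 (limma adjusted p = 0.0323), 2 of the 10 genes, 0.0907%, called over all 11025 in that fit. With 2 libraries against 2, the spread of each gene was largely borrowed from all genes. Tnnc1 had -0.41 there (limma adjusted p = 0.188), Tnnt3 -0.70 (0.294), Tnni2 -0.54 (0.257) and Tnnt1 -0.27 (0.555). With Tnni1 and Tnnc2, 6 members were below 0 and the other 2, Tnnt2 and Tnni3, above. Of all tested genes, 50.5% were below 0, and the count of members was not tested. Tnnt2 stood at 0.15 (limma adjusted p = 0.484) and Tnni3 at 0.32 with no filter on low values (limma adjusted p = 0.544).

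Replicates 3 and 4 alone gave another picture for troponin C, with 0 genes called in limma and 72 at an unadjusted p under 0.05. Tnnc2 had 0.44 and Tnnc1 0.40 (limma adjusted p = 0.83 each), both above 0, while Tnni1 had -0.19, Tnnt3 -0.32, Tnni2 -0.37 and Tnnt1 -0.32. The difference between the pairs was tested itself, in a limma interaction term chosen after the data were seen. For Tnnc2 it was 1.28 ± 0.20 (SE), with an unadjusted p of 4.04e-04 and an adjusted p of 0.895, and for Tnnc1 0.81 ± 0.32 (SE, adjusted p = 0.895), and 0 of 11025 genes passed, with 98 at an unadjusted p under 0.05. For Tnni1 it was 0.68 ± 0.35 (SE, adjusted p = 0.895). With the division as a covariate in limma over all 8 libraries, 0 genes were called, and 3 of the 7 tested troponin genes (Tnni2, Tnnt3 and Tnni1) had an unadjusted p under 0.05, against 4.06% of all tested genes. With siFam129b library 4 also left out, 5 of the 7 had one (those 3 with Tnnt1 and Tnnt2), against 11.3% of all tested genes, and 5 genes were called, 0 of them troponin genes. The smallest of these adjusted p was 0.105, for Tnni1 at a log2 difference of -0.72. siFam129b library 4, in which Tnnt2 and Tnnc1 were at their highest and Tnnt3 and Tnni2 at their lowest, belongs to the second pair.

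**Figure D3:**
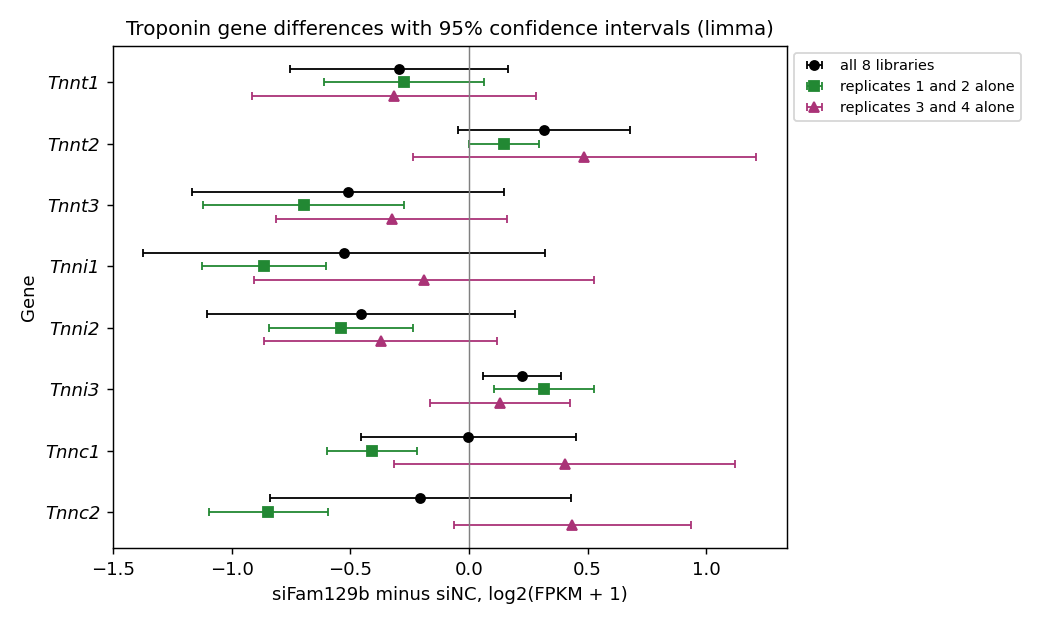
Differences of siFam129b minus siNC on the log2(FPKM + 1) scale for each troponin gene, with 95% confidence intervals from limma, for all 8 libraries and for each pair of replicates alone (the fit for Tnni3 had no filter on low values). Tnnt2 and Tnni3 lie above 0 in all 3 fits, Tnnt1, Tnnt3, Tnni1 and Tnni2 below 0 in all 3, and Tnnc1 and Tnnc2 on opposite sides of 0 in the pairs.

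Other genes of the thin filament, the actin-based strand that troponin sits on, were mostly below 0 as well, and 0 of 13 tested passed limma over all genes, with 2 at an unadjusted p under 0.05. Of the 21 on the list, 13 were tested, 9 below 0 and 4 above. Their median log2 difference was -0.21 against 0.0032 for all genes. Above 0 were the tropomyosin genes Tpm1 (0.12 ± 0.11), Tpm2 (0.18 ± 0.16) and Tpm3 (0.095 ± 0.080) and Acta2 (0.10 ± 0.11, SE). Their siNC means were 304, 74.9, 259 and 140 FPKM, against 7.16 FPKM for Acta1. Tpm4, the highest of the list at 573 FPKM in siNC, was below 0 (-0.084). The 2 at an unadjusted limma p under 0.05 were Klhl41 (-0.59) and Xirp1 (-0.22). Acta1, skeletal muscle actin, had -0.75 ± 0.38 and Tmod1, which caps the pointed end of the filament, -0.45 ± 0.20 (SE, limma adjusted p = 0.784 each). Of 14 genes of fast fibres, 7 were tested and all 7 lay below 0 with 0 called. Myl1, a fast myosin light chain, had -0.58 ± 0.32 and Actn3, the fast fibre actinin, -0.19 ± 0.18 (SE, limma adjusted p = 0.784 each). Of 14 genes of slow fibres 3 were tested, 1 below 0 and 2 above, and 4 (Myl2, Myl3, Mybpc1 and Sln) were listed at 0 in every library.

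Markers of heart muscle were mostly at or near 0. Of 12 cardiac genes, 8 stayed under 1 FPKM in every library. The 3 tested gave 0 calls, with 2 below 0, 1 above and a median log2 difference of -0.28. They were Nppb, a natriuretic peptide (-0.31 ± 0.14), Myl4, an atrial and embryonic light chain (-0.28 ± 0.25), and Gata4 (0.0041 ± 0.10, SE, limma adjusted p = 0.784, 0.784 and 0.989). Nkx2-5, a heart transcription factor that was not tested, lay between 0.359 and 1.76 FPKM. Mybpc3, cardiac myosin binding protein, and Hand2, another transcription factor of the heart, were listed at 0 in every library, Myh6, the adult cardiac myosin of the mouse, reached at most 0.00983 FPKM, and Myl7, the atrial light chain, at most 0.188 FPKM. Gata4, a transcription factor of the heart and other tissues, was the highest of the list at 8.99 ± 0.495 FPKM in siNC and 9.05 ± 1.07 FPKM in siFam129b (SD, n = 4). The summed level of the list ran from 11.6 to 14.3 FPKM in siNC and from 11.1 to 15.7 FPKM in siFam129b. Smooth muscle markers summed to between 61.2 and 64.2 FPKM in siNC and between 55.9 and 84.0 FPKM in siFam129b, with Myh11, smooth muscle myosin, at 0.0308 FPKM or less. The part of these markers in the Tnnt2 values was not tested.

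Regulators of the troponin genes gave no call. Of 13 myogenic regulators 12 were tested, 6 below 0 and 6 above. Myog, which drives terminal differentiation, had the smallest p, at a log2 difference of -0.98 ± 0.42 (SE, limma adjusted p = 0.784), while Myod1, the determination factor, had 0.13 ± 0.13 (SE, limma adjusted p = 0.784). Splicing factors known to act on troponin T exons, or on muscle exons more widely, were mostly below 0, with 10 of 11 tested below, a median of -0.27 and 0 called. Celf1, which promotes an embryonic exon of Tnnt2, stood at 29.8 ± 2.75 FPKM in siNC and 25.1 ± 7.86 FPKM in siFam129b (SD, n = 4). Ptbp2 stood at 18.2 ± 0.919 and 15.5 ± 4.86 FPKM (SD, n = 4). The lowest siFam129b values lay far below these means, at 13.4 FPKM for Celf1 and 8.45 FPKM for Ptbp2. How much of the differences rests on such low values was not tested. The table holds 1 value per gene, so no exon of a troponin T gene could be followed. Of 18 calcium handling genes 14 were tested, 9 below 0 and 5 above, with 0 called. Srl, sarcalumenin of the sarcoplasmic reticulum, had -0.42 ± 0.19 (SE, limma adjusted p = 0.784).

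The genes whose pattern over the 8 libraries was most like the mean of the 7 tested troponin genes included genes of fast skeletal muscle. Likeness was the root mean square difference between standardized log2 levels, which was 0.314 for Atp2a1, the calcium pump of fast fibres, 0.342 for Pak1, a kinase of the cytoskeleton, 0.342 for Actn3, 0.351 for Nnmt, a methyltransferase of nicotinamide, and 0.368 for Dusp27, a muscle gene of the dual specificity phosphatase family. The median over 11018 other tested genes was 1.15. The troponin genes themselves ran from 0.332 for Tnni1 and 0.425 for Tnnc2 up to 0.627 for Tnnc1 and 1.12 for Tnnt2. Tnnt2, the most abundant member, was thus about as far from that mean as the median gene. Each member is itself part of that mean, which brings it nearer by construction. Atp2a1 averaged 4.70 FPKM in siNC libraries 1 and 2 and 1.82 FPKM in 3 and 4, so the shared pattern holds the division by replicate number, and picking 5 genes of many by closeness gives small values by construction.

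**Figure D4:**
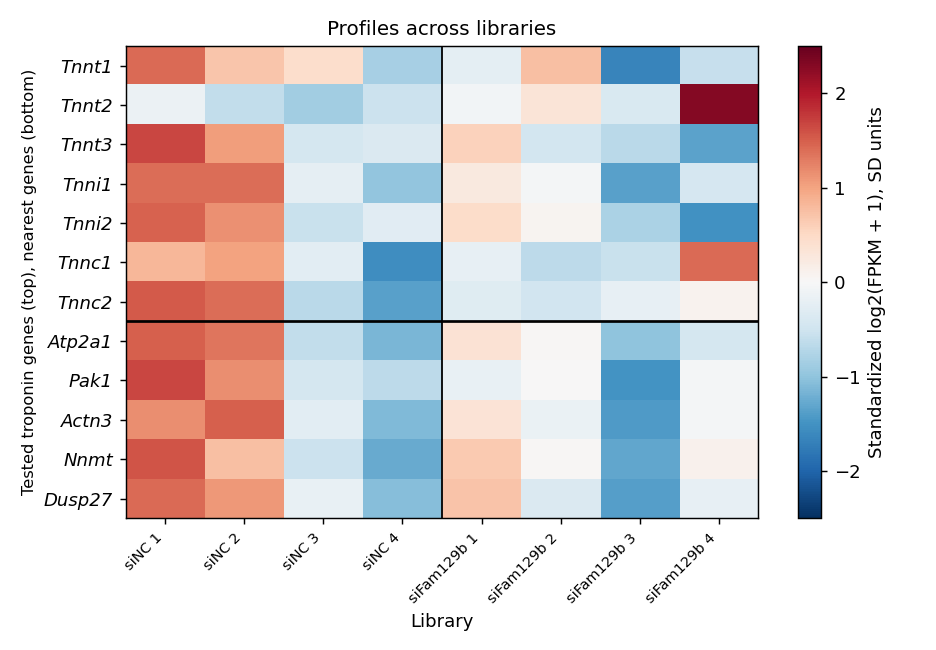
Standardized log2(FPKM + 1) of the 7 tested troponin genes and of the 5 nearest other genes in each library, in SD units of each gene. siNC libraries 1 and 2 are high for all rows but Tnnt2, whose highest value is that of siFam129b library 4 (60.9 FPKM).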

How the data were processed

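The authors deposited FPKM values, 1 for each gene in each library. Build mm9 is named in the submitters' processing notes, and no source used here names the aligner, counter or annotation. Columns were matched to the sample titles by letter and replicate number; the letter F appears in the titles and not in the descriptions of the siFAM129B samples. Per the labels' protocols, 1.3 µg of total RNA went into each library, with poly(A) selection and fragments of 300 to 350 bp.

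Of 21879 genes, 5400 were at 0 in every library, and for 16478 of the other 16479 whole reads could be recovered from the ratios between libraries, to within 0.001 read. The smallest that fit were used, which makes library totals lower bounds. The test was limma (3.58.1, under R 4.3.3), run on log2(FPKM + 1) with the trend option. That scale understates changes of low genes. Genes averaging 1 FPKM or more entered, p-values were adjusted by Benjamini-Hochberg, and calls were made at 0.05. It was run on simulated data with planted changes larger than the troponin differences and no division by replicate number. How it calls changes of the present size was not tested. Promoter sequences came from RefSeq (GRCm38.p6), matched by symbol, and no coordinates were joined to the table. The named genes were the 8 troponin genes, Fam129b, up to 4 genes per list by smallest p, zero or near-zero defining markers, and the 5 nearest genes. Outside that rule, Des, Cdh15, Nkx2-5, Acta2, the tropomyosin genes and the genes beside or overlapping troponin genes were named. The members, 12 lists and 20 alternative fits were chosen with earlier results of these data known, and an interaction term was added later.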

Additional observations from a re-analysis of the deposited data

Results flagged for a closer look

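For Fam129b, siFam129b library 4 stood at 128 FPKM, far from the other siFam129b libraries at 87.0 to 91.6 FPKM. Its gap to the nearest of them was 0.889 of the group's whole range, above Dixon's 95% critical value for 4 samples. No group of libraries of any of the 8 troponin genes passed that value. Of 18 groups examined 1 was marked, and chance marks about 1 in 20.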

How the results depend on the processing

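Under the 20 alternative fits, Tnnt2 and Tnni3 stayed above 0 and Tnnt1, Tnnt3, Tnni1 and Tnni2 below 0 wherever each was tested. Over all 8 libraries, another filter, a replicate block or the replicate division as a covariate leaves each difference unchanged by design. The sign could therefore not change in those fits. With a mean of at least 5 FPKM required, Tnnt2 and Tnnc1 were the troponin genes tested. Tnnt2 ranged from 0.13 to 0.49, Tnnt3 from -0.90 to -0.30, Tnni2 from -0.97 to -0.27, Tnni1 from -0.86 to -0.19 (-0.83 to -0.30 with single libraries left out, the smallest without siNC replicate 1), Tnnt1 from -0.48 to -0.14 and Tnni3 from 0.13 to 0.62, with the largest sizes of Tnnt1, Tnnt3, Tnni2 and Tnni3 in voom on recovered reads, whose scale adds no 1 to the value. In the 20 fits a troponin gene passed an adjusted p of 0.05 in replicates 1 and 2 alone, where Tnni1 and Tnnc2 did. Tnnc1 changed sign after quantile normalization (0.022), in replicates 3 and 4 alone (0.40) and with single libraries left out (-0.16 to 0.10). Tnnc2 changed sign in replicates 3 and 4 alone (0.44), and with single libraries left out it ran from -0.44 to -0.0056, the latter without siNC replicate 1. The cause was not tested.

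The count of called genes, 0 with all libraries, was 1 after quantile normalization, 2 with array weights, 10 in replicates 1 and 2 alone, 5 without siFam129b library 4 and with the replicate division as a covariate, and between 0 and 1 with single libraries left out. Fam129b ran from -0.91 to -0.73 with single libraries left out, with an exact permutation p of 0.0571 each time, the smallest that 4 against 3 can give, and limma adjusted p from 0.00176 (without siFam129b replicate 4) to 0.912.

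With replicate number as a block, limma called 0 of 11025 genes, and 305 had an unadjusted p under 0.05. Among these were 2 of the 7 tested troponin genes. They were Tnni2 and Tnnt3, at unadjusted limma p of 0.00746 and 0.00749 (adjusted p = 0.703 each). Deviations of same-numbered libraries from their group means correlated at 0.53, 0.25, 0.045 and 0.12 for numbers 1 to 4, and those of unlike-numbered libraries reached 0.47, so the numbers were not taken to pair the samples. Values that rest on few reads, such as the 11 reads of Tnni2 in siFam129b library 4, are limited by counting error.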
